A study of Mus musculus with 17 samples.

Results

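The subject is the cytochrome P450 genes of families 1 to 4, the haem-containing oxygenases that carry out most oxidation of drugs, toxins, fatty acids and steroids in the liver. They were taken as every gene with a non-control probe whose name in the scanner files starts with Cyp, a family number from 1 to 4, a subfamily letter and a gene number. The rule found 78 genes with 101 probes, among 31791 gene names with 39429 probes on the array. Of the 78 genes, 76 were well above background on at least 2 of the 17 arrays and were tested with the other genes, 26039 in all. Cyp2b23 and Cyp4x1 were not well above background on any array and were not tested.

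Each P450 of these families sits in the endoplasmic reticulum and takes electrons from cytochrome P450 oxidoreductase to insert an oxygen atom into its substrate. In the adult liver most of them are made by hepatocytes, many near the central vein, and their level is used as a measure of hepatocyte maturity. Family 1 answers to the aryl hydrocarbon (Ah) receptor, many members of subfamilies 2b, 2c and 3a answer to the receptors CAR and PXR, and subfamily 4a answers to the fatty acid receptor PPAR alpha. Cholangiocytes, the cells that line the bile ducts, share a progenitor with hepatocytes but carry few of these enzymes.

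The study set adult hepatic progenitor cells, differentiated in culture, beside primary liver cells on single-colour Agilent mouse arrays. The groups were progenitor cells differentiated towards hepatocytes (labelled Diff_Hepatocyte, 4 arrays), progenitor cells differentiated towards cholangiocytes (Diff_Cholanglocyte, 3 arrays), undifferentiated progenitor cells (Undiff, 4 arrays), primary hepatocytes (Primary_Hepatocyte, 4 arrays) and primary cholangiocytes (Primary_Cholangocyte, 2 arrays). All 5 groups carry the same genotype label, Foxl1-CRE; RosaYFP, in which the Foxl1 promoter drives the recombinase and the Rosa locus carries a fluorescent reporter, and the animals were 6 to 10 weeks old. The labels give neither the sex of the animals nor the culture times, and leave unsaid whether the arrays of a group stem from different animals or different cultures, so the p-values here reflect array-to-array spread that may be technical.

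Levels are given as log2 of the processed Cy3 signal relative to the 75th percentile of the same array, so 0 means a probe as bright as that percentile. An array not above background enters a fitted difference at its measured signal, so the size of such a difference is uncertain. The 75th percentile was 1909 to 2202 in hepatocyte-differentiated cells, 1747 to 2022 in cholangiocyte-differentiated cells, 2111 to 2541 in undifferentiated cells, 547 to 986 in primary hepatocytes and 2696 to 2867 in primary cholangiocytes, so primary hepatocytes were scaled by the lowest values. Arrays of a group correlated at r = 0.947 to 0.983 over genes, and the number of arrays limits the precision. The primary cells carried most markers of their labels: albumin (Alb) lay at 9.46 to 10.31 in primary hepatocytes and at −4.94 and −9.65 in primary cholangiocytes, and the cholangiocyte surface protein Epcam lay at 3.05 and 2.22 in primary cholangiocytes. In primary hepatocytes 8 of 8 hepatocyte markers were higher than in primary cholangiocytes (limma, adjusted p under 0.05). Of 9 cholangiocyte markers 6 were lower there and 1 was higher, Slc4a2, at 3.36 to 3.85 against 1.26 and 0.97. Of all genes tested, 28% were higher and 21.6% lower. In the cultured groups Epcam was low, at −6.74 to −2.80 in hepatocyte-differentiated cells, −7.27 to −6.24 in cholangiocyte-differentiated cells and −7.36 to −5.59 in undifferentiated cells. The 9 cholangiocyte markers together summed to 6.48 to 7.31 in cholangiocyte-differentiated cells and to 7.34 to 7.76 in primary cholangiocytes. The sum was 6.65 to 7.45 in undifferentiated and 6.37 to 6.82 in hepatocyte-differentiated cells, so it did not set the cholangiocyte condition apart. It follows its brightest gene, Krt19, at 5.85 to 6.99 in cholangiocyte-differentiated cells. Relative to primary cholangiocytes, 2 of the 9 were higher and 3 lower in these cells, against 11.9% and 7.62% of all genes. Alb set the cultured arrays apart from each other: in hepatocyte-differentiated cells it was 7.62, −4.76, 7.58 and −3.65 on arrays 1 to 4, and in undifferentiated cells 6.00, 1.26, −4.44 and −8.74.

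P450 genes of a cluster are close copies of each other, and a 60-base probe reads such a gene only as far as its letters differ from its neighbours. Of the 101 probes, 96 carried an accession or gene name found in RefSeq, and 85 of these pointed to 1 gene while 11 pointed to several. The probes below were chosen to show this range, with capitals marking the run of bases that a pair of probes shares. The Cyp3a11 probe (chromosome 5) is annotated to 4 neighbouring genes, Cyp3a11, Cyp3a41a, Cyp3a41b and Cyp3a44.
Cyp3a11: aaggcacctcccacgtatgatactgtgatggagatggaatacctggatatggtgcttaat
Cyp2d9: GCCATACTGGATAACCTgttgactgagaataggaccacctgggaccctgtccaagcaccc
Cyp2d34: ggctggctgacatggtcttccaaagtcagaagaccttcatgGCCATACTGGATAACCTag
Cyp4a10: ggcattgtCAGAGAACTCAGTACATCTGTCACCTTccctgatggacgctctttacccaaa
Cyp4a31: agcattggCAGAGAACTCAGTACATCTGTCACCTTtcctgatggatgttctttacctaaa
Cyp2j13: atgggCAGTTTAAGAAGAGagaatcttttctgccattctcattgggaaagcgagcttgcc
Cyp2a4: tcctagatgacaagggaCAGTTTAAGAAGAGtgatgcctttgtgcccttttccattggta

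The Cyp2d9 and Cyp2d34 probes (chromosome 15) share a run of 17 bases, and the Cyp4a10 and Cyp4a31 probes (chromosome 4) share 27. The Cyp2j13 and Cyp2a4 probes share 14 bases although the genes lie on chromosomes 4 and 7 and belong to different subfamilies. Among 5023 pairs of probes of different P450 genes, 5 pairs shared a run of at least 20 bases, the longest of 34 bases between Cyp4a10 and Cyp4a31. The probes annotated to several genes lie in subfamilies 2a, 2c, 2j, 3a and 4a, and their values are uncertain as to which copy they measure. The Cyp2a4 probes are annotated to Cyp2a4 and Cyp2a5, and the Cyp4a12a probe to Cyp4a12a and Cyp4a12b. The Cyp2j13 probe printed is annotated to Cyp2j12 and Cyp2j13. No 2d probe is annotated to several genes, but whether 2d probes also read neighbouring copies was not tested. Cyp3a11 below stands for the copies its probe is annotated to. The Cyp2a4, Cyp2d34, Cyp4a10 and Cyp4a31 probes printed are second probes of those genes; the levels below come from the probe with the highest mean.

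How much of the family was above background depended on the group and, within hepatocyte-differentiated and undifferentiated cells, on the array. The number of P450 genes well above background on an array was 53 to 72 in hepatocyte-differentiated cells, 54 to 57 in cholangiocyte-differentiated cells, 39 to 62 in undifferentiated cells, 69 to 74 in primary hepatocytes, and 49 and 56 in primary cholangiocytes. Counted on any array of a group, 73 genes were above background in hepatocyte-differentiated cells, 60 in cholangiocyte-differentiated cells, 62 in undifferentiated cells, 74 in primary hepatocytes and 58 in primary cholangiocytes. Counted on every array of a group, 51 genes were above background in hepatocyte-differentiated cells, 50 in cholangiocyte-differentiated cells, 37 in undifferentiated cells, 68 in primary hepatocytes and 47 in primary cholangiocytes. The heat map of all 78 genes shows the primary hepatocyte arrays as 1 bright block.

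**Figure D1:**
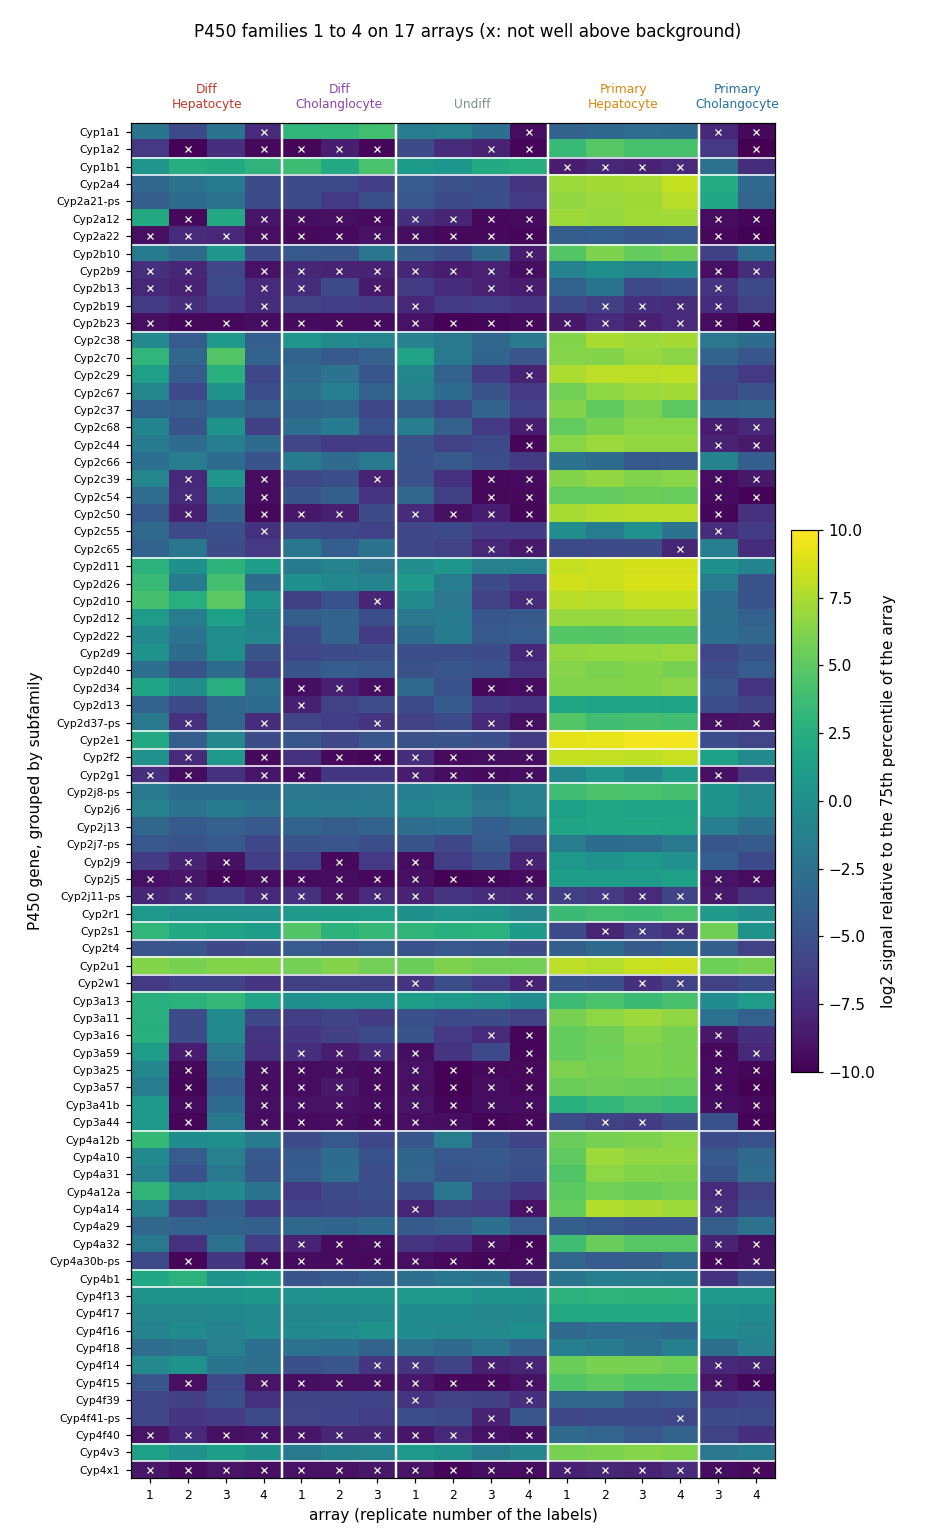
Level of all 78 P450 genes (rows, grouped by subfamily) on each of the 17 arrays (columns, by group and replicate number), as log2 signal relative to the array's 75th percentile; a white x marks a probe not well above background. The 4 primary hepatocyte arrays are bright for most genes, and among the hepatocyte-differentiated arrays numbers 1 and 3 are brighter than 2 and 4 for the 3a genes other than Cyp3a13 and for many 2c genes.

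Set against primary cholangiocytes, primary hepatocytes were higher for 62 of the 76 tested P450 genes and lower for 4, where 28% of all genes tested were higher and 21.6% lower (limma with Benjamini-Hochberg adjustment, adjusted p under 0.05, called passing the test from here on). The median difference over the P450 genes was 7.98 on the log2 scale, against 0.35 over all genes. Cyp2e1, which oxidises ethanol and paracetamol, stood at 9.18, 9.22, 9.66 and 9.61 in primary hepatocytes and at −5.27 and −5.83 in primary cholangiocytes. Cyp2a12, a steroid hydroxylase, was at least 25857-fold higher in primary hepatocytes (limma adjusted p = 0.000128), because neither cholangiocyte array was above background. Such a bound sets the mean of the brighter group against the dimmest signal still counted as well above background on the other arrays, or against the dim probe's own signal where that is higher. Cyp4f14, which inactivates leukotrienes by hydroxylation, was at least 9909.7-fold higher by the same bound (limma adjusted p = 9.06e-09), and Cyp2j5, an arachidonic acid epoxygenase, was above background in primary hepatocytes alone, at 1.18, 1.14, 0.99 and 1.34.

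The 4 genes lower in primary hepatocytes than in primary cholangiocytes were Cyp1b1, Cyp2s1, Cyp4a29 and Cyp4f16. Cyp2s1, a P450 of epithelia outside the liver parenchyma, was at −5.44, −7.90, −6.47 and −7.04 in primary hepatocytes against 5.69 and 0.29 in primary cholangiocytes, a fitted difference of −9.70 ± 1.15 (SE; limma adjusted p = 8.06e-06). Primary hepatocyte arrays 2, 3 and 4 were not above background for it, and the difference was −7.0 without primary cholangiocyte replicate 3 and −12.40 without replicate 4. Cyp1b1 was not above background on any primary hepatocyte array and was at least 2.19-fold lower (limma adjusted p = 0.0333), a call that held in 3 of 6 fits with 1 array left out and was lost without primary cholangiocyte replicate 3, among others (limma adjusted p = 0.677). The differences of Cyp4a29 and Cyp4f16 were −1.28 and −2.53. Those of Cyp1b1 and Cyp4a29 turned above 0 under another background correction, at 0.035 and 0.13. With each array left out in turn, 60 of the 66 calls held each time. On both slides that carried an array of each group, all 62 higher genes were higher and all 4 lower genes lower, and with slide as a block 64 were higher and 4 lower. In these bulk samples, here and below, fewer cells of a type and less RNA per cell cannot be told apart.

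Set against undifferentiated progenitors, hepatocyte-differentiated cells had a higher signal for 14 P450 genes, most of them in subfamilies 2d and 4a. In hepatocyte-differentiated cells 14 of the 76 genes rose and 1 fell, where 7.61% of all genes rose and 7.7% fell. The genes that rose were 6 of the 10 in subfamily 2d, 3 of the 8 in subfamily 4a (Cyp4a12a, Cyp4a12b and Cyp4a32), and Cyp2c44, Cyp3a13, Cyp4b1, Cyp4f14 and Cyp2a22. The last of these was not above background on any array of either group, so its call rests on signal below background. It is no measure of transcript. The median difference was 1.81 over the P450 genes and 0.07 over all genes, and 33 P450 genes were higher and 2 lower at an unadjusted p under 0.05.

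Cyp4f14 had the smallest adjusted p of the family. It was at −0.61, 0.30, −2.28 and −2.59 in hepatocyte-differentiated cells and at −6.98, −5.94, −8.22 and −7.90 in undifferentiated cells, where it was above background on 1 of 4 arrays. The groups did not overlap, and the difference was 5.96 ± 0.66 (SE; limma adjusted p = 6.97e-05). Cyp4b1, which hydroxylates fatty acids and activates some plant toxins and is best known from the lung, was at 1.91, 2.83, 0.17 and 0.80 in hepatocyte-differentiated cells against −2.75, −2.18, −2.40 and −6.21 in undifferentiated cells. All 4 hepatocyte-differentiated arrays lay above all undifferentiated ones, by 4.82 ± 0.82 on average (SE; limma adjusted p = 0.00143).

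In subfamily 2d, a gene cluster on chromosome 15, Cyp2d10 was at 4.11, 2.55, 4.98 and 0.28 in hepatocyte-differentiated cells and at −0.46, −2.05, −6.04 and −7.52 in undifferentiated cells. Cyp2d34 was at 1.70, −0.22, 2.61 and −2.54 against −3.16, −4.92, −9.56 and −9.31. Neither gene's groups overlapped, and the differences were 7.0 ± 1.38 and 7.12 ± 1.34 (SE; limma adjusted p = 0.00382 and 0.00289). Cyp2d9, a testosterone hydroxylase of the male mouse liver, was at 0.31, −2.91, −0.06 and −4.80 in hepatocyte-differentiated cells against −5.19, −5.19, −5.36 and −7.66 in undifferentiated cells. Its difference was 3.99 ± 0.91 (SE; limma adjusted p = 0.00889). Cyp2d11, Cyp2d12 and Cyp2d22 rose by 2.28, 3.21 and 2.37, while Cyp2d13, Cyp2d26, Cyp2d37-ps and Cyp2d40 differed by 1.96, 3.88, 2.10 and 1.32 and did not pass the test.

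Subfamily 4a hydroxylates the tail of fatty acids. Cyp4a12a, which makes the vasoactive arachidonic acid product known as HETE and is higher in male mice, was at 3.06, −0.91, −0.47 and −2.32 in hepatocyte-differentiated cells and at −5.46, −2.18, −5.71 and −6.82 in undifferentiated cells. Hepatocyte-differentiated array 4 lay just under undifferentiated array 2, and the difference was 4.88 ± 1.05 (SE; limma adjusted p = 0.00627). Its near-copy Cyp4a12b rose by 4.59 and Cyp4a32 by 3.83. Cyp4a10 and Cyp4a14, the members most used as readouts of PPAR alpha, differed by 1.80 and 2.93 without passing the test (limma adjusted p = 0.173 and 0.0685), although 1 of the 3 probes of Cyp4a10 passed at 4.58.

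Cyp3a13 was the only member of subfamily 3a that rose on its representative probe. It was at 2.53, 2.78, 3.29 and 1.71 in hepatocyte-differentiated cells against 1.25, 0.83, 0.41 and −0.25 in undifferentiated cells, a difference of 2.02 ± 0.38 with no overlap (SE; limma adjusted p = 0.00278). Cyp2c44, an arachidonic acid epoxygenase that RefSeq now lists as Cyp2c23, was the only member of the 13 genes of subfamily 2c that rose. It was at −1.84, −3.03, −1.46 and −2.97 in hepatocyte-differentiated cells against −5.05, −6.17, −5.60 and −9.62 in undifferentiated cells, a difference of 4.29 ± 0.75 (SE; limma adjusted p = 0.0017). The gene that fell was Cyp2j8-ps, by 1.23, with −2.0, −3.02, −2.94 and −2.95 in hepatocyte-differentiated cells against −1.34, −1.03, −2.30 and −1.31 in undifferentiated cells, where the groups overlapped.

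The classical liver P450 genes did not pass the test in this comparison on their representative probes. Cyp3a11, the main PXR-inducible drug oxidase of mouse liver, was at 2.68, −5.43, −0.33 and −5.76 in hepatocyte-differentiated cells and at −5.14, −5.54, −5.36 and −6.09 in undifferentiated cells. Cyp2e1 was at 2.05, −4.12, −0.71 and −5.44 against −5.06, −4.87, −5.08 and −6.41. Both genes were high on hepatocyte-differentiated arrays 1 and 3 and near or within the undifferentiated range on arrays 2 and 4, with differences of 3.32 ± 1.38 and 3.3 ± 1.16 (SE; limma adjusted p = 0.129 and 0.072). A second probe of Cyp3a11, annotated to Cyp3a11 alone, did pass, at 7.14 ± 2.0 (SE; limma adjusted p = 0.0253). Cyp2f2, which oxidises naphthalene and lies in periportal hepatocytes, was at 0.13 and 0.71 on arrays 1 and 3 of hepatocyte-differentiated cells, and was not above background on their arrays 2 and 4 or on any undifferentiated array. The bound came to 10.6-fold with hepatocyte-differentiated arrays 2 and 4 entered at their measured signal, so it is not a strict lower limit. Arrays 1 and 3 carried this figure, and the difference did not pass (limma adjusted p = 0.0966).

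Cyp1a2, which metabolises caffeine and aromatic amines, was at −6.68, −9.82, −7.27 and −9.57 in hepatocyte-differentiated cells against −5.45, −7.48, −8.07 and −9.75 in undifferentiated cells, with arrays 2 and 4 of the first group and 3 and 4 of the second not above background. The difference of −0.65 ± 0.95 did not pass (SE; limma adjusted p = 0.736), and its sign turned under another background correction (0.020). Of the 7 pericentral P450 genes tested, a list that holds Cyp1a2 and Cyp2e1, 0 rose and 0 fell, with a median of 2.18. The 3 male-biased genes all rose, of the 6 PPAR alpha-inducible genes 3 rose, of the 9 CAR- and PXR-inducible genes 1 rose, and of the 6 female-biased genes 0 rose, at medians of 4.59, 3.38, 2.85 and 3.10. These lists overlap, and by the same test 14 of all 76 P450 genes (18.4%) and 7.61% of all genes rose.

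Markers of hepatocytes moved with P450 genes that did not pass and with many that did. None of the 8 hepatocyte markers passed the test in this comparison, and their summed level on the log2 scale ranged over 2.93 to 8.86 in hepatocyte-differentiated cells and over −3.29 to 6.68 in undifferentiated cells, with Alb high on hepatocyte-differentiated arrays 1 and 3 as were Cyp3a11, Cyp2e1 and Cyp2f2. Among the genes that rose, Cyp2d9, Cyp2d10, Cyp2d11, Cyp2d12, Cyp2d22, Cyp2d34, Cyp2c44, Cyp4a12a, Cyp4a12b and Cyp4a32 were also higher on arrays 1 and 3 than on 2 and 4. Cyp2a22, Cyp3a13, Cyp4b1 and Cyp4f14 did not follow this split. Cholangiocyte markers summed to 6.37 to 6.82 against 6.65 to 7.45, and stellate and mesenchymal markers to −3.44 to 0.35 against −3.87 to −3.19. Their part in the P450 differences was not tested. The number of P450 genes that rose was 25 without hepatocyte-differentiated replicate 2, also 25 without replicate 4, and 10 to 25 over all single left-out arrays. Of the 15 calls, 10 held each time, namely Cyp2c44, Cyp2d9, Cyp2d10, Cyp2d12, Cyp2d34, Cyp3a13, Cyp4a12a, Cyp4a12b, Cyp4b1 and Cyp4f14. On the 3 slides that carried an array of each group, the 14 genes that rose were higher for 12, 14 and 14 of them, while the median over all P450 genes was −0.06, −0.24 and 3.18. With slide as a block, 9 genes rose and 0 fell.

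**Figure D2:**
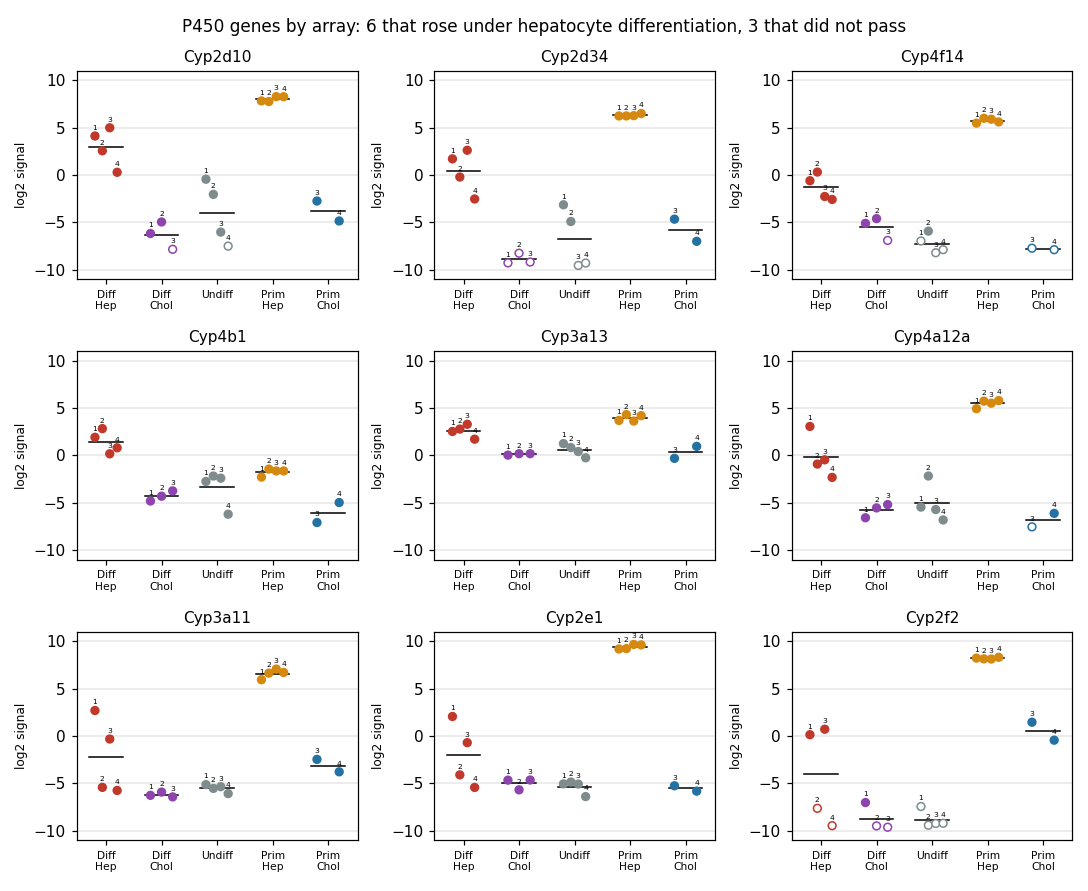
Level of 9 P450 genes on each array, by group, as log2 signal relative to the array's 75th percentile; numbers are replicate numbers, lines are group means and open circles are probes not well above background. Cyp2d10, Cyp2d34, Cyp4f14, Cyp4b1, Cyp3a13 and Cyp4a12a rose in hepatocyte-differentiated cells relative to undifferentiated cells. Cyp3a11, Cyp2e1 and Cyp2f2 were high on arrays 1 and 3 and did not pass the test on the probes shown.

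Against the cholangiocyte condition, the hepatocyte condition was higher for genes of subfamilies 2d and 4a. Of 76 genes, 15 rose and 1 fell in hepatocyte-differentiated relative to cholangiocyte-differentiated cells, where 6.97% of all genes rose and 8.4% fell. The genes that rose were 7 of subfamily 2d, Cyp4a12a, Cyp4a12b and Cyp4a32, and Cyp2c44, Cyp3a13, Cyp4b1, Cyp4f14 and Cyp4v3. Of the 2 probes of Cyp3a11, 1 also passed, with differences of 4.01 and 7.65. The medians were 0.95 over the P450 genes and −0.13 over all genes. This comparison shares its hepatocyte-differentiated arrays with the one before it.

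Cyp2d34 was not above background on any cholangiocyte-differentiated array and was at least 206-fold higher in hepatocyte-differentiated cells (limma adjusted p = 0.000825). Cyp4a32, also below background on all 3, was at least 7.20-fold higher (limma adjusted p = 0.0147). Cyp2d10 was at −6.19, −4.97 and −7.86 in cholangiocyte-differentiated cells, lower than in hepatocyte-differentiated cells by 9.32 ± 1.49 (SE; limma adjusted p = 0.000967). Cyp4b1 was at −4.82, −4.31 and −3.75, Cyp4f14 at −5.12, −4.62 and −6.92 and Cyp3a13 at 0.03, 0.18 and 0.18 there. Hepatocyte-differentiated cells were above these by 5.72, 4.26 and 2.45. Cyp4v3, the mouse counterpart of the human fatty acid hydroxylase mutated in Bietti crystalline dystrophy, was at 1.36, 0.10, 1.24 and 0.31 in hepatocyte-differentiated cells against −2.01, −1.04 and −0.79 in cholangiocyte-differentiated cells, a difference of 2.03 ± 0.49 without overlap (SE; limma adjusted p = 0.0123).

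Cyp1a1 ran the other way. This oxidase of polycyclic aromatic hydrocarbons, the textbook target of the Ah receptor, was at −2.31, −5.47, −2.35 and −7.50 in hepatocyte-differentiated cells and at 3.15, 3.24 and 3.95 in cholangiocyte-differentiated cells. All 3 cholangiocyte-differentiated arrays lay above every array of every other group, and the difference of −7.86 ± 1.65 (SE; limma adjusted p = 0.00555) passed under each of the 18 alternatives tried. One hepatocyte marker of 8 passed between these groups, and the hepatocyte markers summed to 2.93 to 8.86 in hepatocyte-differentiated cells against 1.32 to 3.71 in cholangiocyte-differentiated cells; their part in the result was not tested. Of the 16 calls, 12 held with each array left out in turn. On the 3 slides with both groups, 14, 15 and 15 of the 15 genes were higher, and Cyp1a1 was lower on each. With slide as a block again 15 rose and 1 fell.

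Set against undifferentiated cells, cholangiocyte-differentiated cells differed in 1 P450 gene. Cyp1a1 rose, 0 genes fell, and 0.783% of all genes rose while 0.599% fell. At an unadjusted p under 0.05, 5 P450 genes were higher and 1 lower, and the authors' deposited table called 0 higher and 0 lower. Cyp1a1 stood at −1.58, −1.32, −2.73 and −9.36 in undifferentiated cells, so the cholangiocyte-differentiated arrays given above were higher by 7.19 ± 1.65 (SE; limma adjusted p = 0.0492). The call is near the threshold: it was lost under 11 of 18 alternatives, with limma adjusted p from 0.000291 to 0.23 and differences from 5.32 to 8.0. Of the 7 single arrays left out, only leaving out undifferentiated replicate 4, the lowest array, kept it (limma adjusted p = 0.0303), and on both slides with both groups Cyp1a1 was higher. With slide as a block the difference was 6.16 and the call was lost (limma adjusted p = 0.166).

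**Figure D3:**
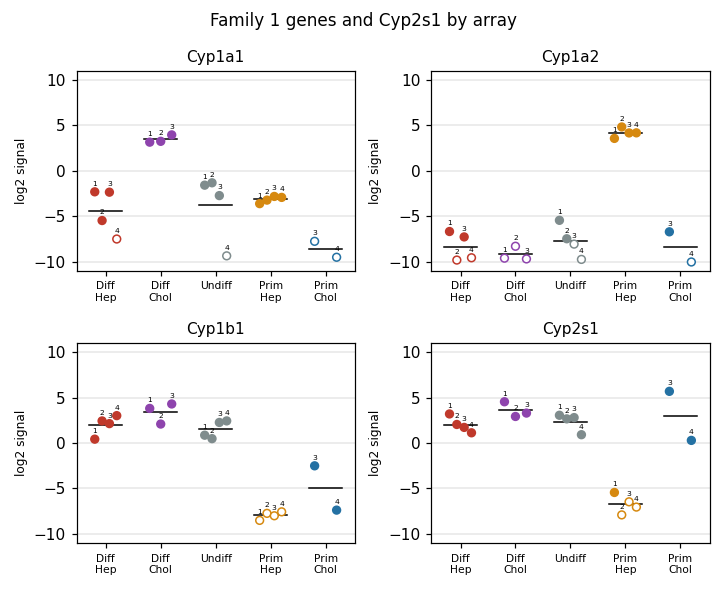
Level of Cyp1a1, Cyp1a2, Cyp1b1 and Cyp2s1 on each array, by group, as log2 signal relative to the array's 75th percentile; numbers are replicate numbers, lines are group means and open circles are probes not well above background. The 3 cholangiocyte-differentiated arrays hold the highest Cyp1a1 levels, at 3.15 to 3.95, while Cyp1a2 is high only in primary hepatocytes, at 3.56 to 4.82.

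The other members of family 1 did not pass in this comparison. Cyp1a2 was not above background on any cholangiocyte-differentiated array. Cyp1b1, an oestrogen hydroxylase found mainly outside the liver, was at 3.81, 2.09 and 4.30 in cholangiocyte-differentiated cells against 0.86, 0.48, 2.26 and 2.43 in undifferentiated cells, with a difference of 1.89 ± 0.96 (SE; limma adjusted p = 0.435). Among 6 Ah receptor targets outside the P450 genes, 1 rose and 0 fell, with a median difference of 1.07. Of all genes tested, 0.783% rose and 0.599% fell. The riser was Tiparp, which encodes a repressor of the receptor. It was at 2.20, 2.35 and 2.76 in cholangiocyte-differentiated cells against 0.42, 0.18, −0.48 and 0.01 in undifferentiated cells, higher by 2.40 (limma adjusted p = 0.000874). Nqo1, on the same list, was at −3.64, −5.59 and −5.78 against −2.86, −3.86, −3.67 and −6.04. Ahrr was at −8.09, −6.32 and −1.76 against −9.24, −8.01, −5.19 and −6.13. Neither passed the test.

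Since Cyp1a1 and Cyp1a2 are neighbours on chromosome 9 and differed in where they were high, their upstream sequences are shown with that of Cyp1b1. Each is the 250 bases before the start in RefSeq's GRCm38.p6 annotation, given in the gene's own direction, and capitals mark GCGTG or its reverse complement CACGC, the core of the element that the Ah receptor binds. The windows are chr9:57697363-57697612 on the plus strand for Cyp1a1, chr9:57683656-57683905 on the minus strand for Cyp1a2 and chr17:79715062-79715311 on the minus strand for Cyp1b1.
Cyp1a1: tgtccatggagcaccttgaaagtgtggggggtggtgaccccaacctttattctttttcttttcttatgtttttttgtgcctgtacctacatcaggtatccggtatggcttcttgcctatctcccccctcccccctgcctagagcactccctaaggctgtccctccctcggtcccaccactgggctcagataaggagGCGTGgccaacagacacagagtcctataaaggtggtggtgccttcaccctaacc
Cyp1a2: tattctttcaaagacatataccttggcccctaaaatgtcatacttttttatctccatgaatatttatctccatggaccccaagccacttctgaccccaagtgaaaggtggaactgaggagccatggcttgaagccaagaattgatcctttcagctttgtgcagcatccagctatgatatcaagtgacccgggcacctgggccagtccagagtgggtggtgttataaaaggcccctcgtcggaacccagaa
Cyp1b1: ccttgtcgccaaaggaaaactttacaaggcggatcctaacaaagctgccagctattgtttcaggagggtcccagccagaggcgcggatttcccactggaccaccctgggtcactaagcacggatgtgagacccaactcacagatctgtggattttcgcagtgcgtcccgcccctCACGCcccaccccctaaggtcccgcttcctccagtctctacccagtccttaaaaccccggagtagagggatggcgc

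The core occurred 1 time before Cyp1a1, 1 time before Cyp1b1 and 0 times before Cyp1a2. Of the 59 P450 genes with a promoter entry, 11 held it (18.6%), against 30.9% of 27025 genes. The motif TATAAA or its reverse complement TTTATA occurred in 24 of the 59 (40.7%), Cyp1a1 and Cyp1a2 among them, against 14.3% of all genes. A match of these letters is a description of the window, and sequence further upstream was not searched. Whether the motifs bear on where these genes were high was not tested.

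Against primary hepatocytes, the hepatocyte-differentiated cells were lower for most of the family. Of 76 genes 62 were lower and 4 higher, where 33.7% of all genes were lower and 25.9% higher. The medians were −6.83 over the P450 genes and −0.33 over all genes. The lower genes included all 10 tested of subfamily 2d, 11 of the 13 of 2c, 7 of the 8 of 3a and 7 of the 8 of 4a, and all 66 calls held with each array left out in turn. On each of the 3 slides with both groups, all 62 genes were lower and all 4 higher, and with slide as a block 64 were lower and 4 higher.

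Cyp2c50 was at −4.37, −8.26, −3.64 and −9.57 in hepatocyte-differentiated cells against 7.38, 7.68, 7.83 and 7.87 in primary hepatocytes, a fitted difference of −14.15 ± 1.17 (SE; limma adjusted p = 1.66e-07). Hepatocyte-differentiated arrays 2 and 4 were not above background for it, so the size is uncertain. Cyp1a2 was at 3.56, 4.82, 4.16 and 4.17 in primary hepatocytes and the difference was −12.51 ± 0.95 (SE; limma adjusted p = 6.51e-08). The difference was −11.47 for Cyp2e1 and −12.27 for Cyp2f2. Cyp3a11 was at 5.93, 6.63, 7.06 and 6.70 in primary hepatocytes, and its difference was −8.79. Cyp2j5 was not above background in hepatocyte-differentiated cells and was at least 356-fold lower (limma adjusted p = 9.99e-14).

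Among the genes that rose over undifferentiated cells, the difference from primary hepatocytes was −5.05 for Cyp2d10, −5.92 for Cyp2d34, −7.03 for Cyp4f14, −9.05 for Cyp2c44 and −5.65 for Cyp4a12a. Cyp3a13 came nearest among them, at 3.70, 4.31, 3.63 and 4.20 in primary hepatocytes, a difference of −1.38 ± 0.38 (SE; limma adjusted p = 0.00611). Both comparisons use the same hepatocyte-differentiated arrays. Cyp4b1 was instead higher in hepatocyte-differentiated cells than in primary hepatocytes, which were at −2.29, −1.44, −1.64 and −1.64, by 3.18 ± 0.82 (SE; limma adjusted p = 0.004).

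**Figure D4:**
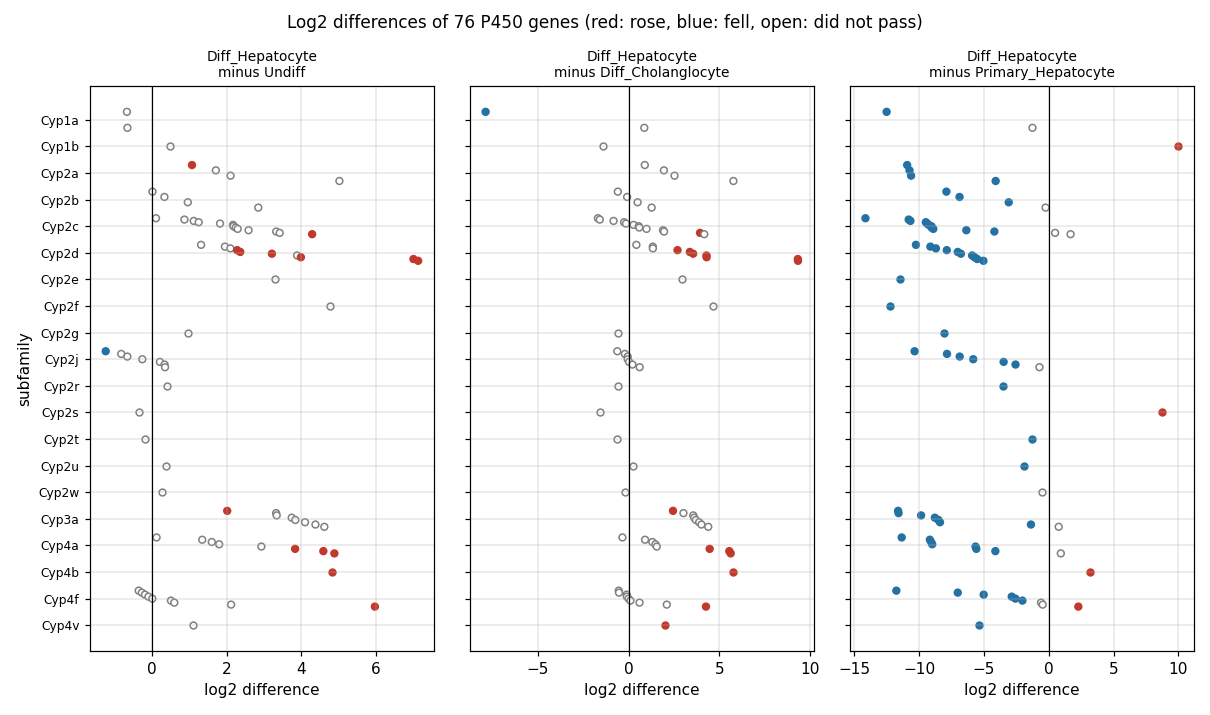
Log2 difference of each of the 76 tested P450 genes, by subfamily, between hepatocyte-differentiated cells and undifferentiated cells (left), cholangiocyte-differentiated cells (middle) and primary hepatocytes (right); red points rose, blue points fell and open points did not pass the test. The 2d genes and Cyp4f14 lie to the right of 0 in the left and middle panels and to the left of 0 in the right panel.

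The other 3 genes higher than in primary hepatocytes were Cyp1b1, Cyp2s1 and Cyp4f16, all of them on the list of P450 genes widely expressed outside hepatocytes. Cyp1b1 was at 0.43, 2.43, 2.14 and 3.01 in hepatocyte-differentiated cells and not above background in primary hepatocytes, a difference of at least 270.1-fold (limma adjusted p = 3.54e-07). Cyp2s1 was at 3.20, 2.04, 1.72 and 1.13 in hepatocyte-differentiated cells, with a fitted difference of 8.73 ± 0.94 (SE; limma adjusted p = 2.33e-06), and 1 of the 4 primary hepatocyte arrays was above background for it. These levels lay within or close to those of undifferentiated cells, which were at 0.86, 0.48, 2.26 and 2.43 for Cyp1b1 and at 3.05, 2.66, 2.80 and 0.92 for Cyp2s1. Of the 13 tested genes on that list, 4 were higher and 7 lower than in primary hepatocytes, where 25.9% of all genes were higher and 33.7% lower. Cyp2u1, a fatty acid hydroxylase found in many tissues, was at 6.27, 5.97, 6.28 and 6.26 in hepatocyte-differentiated cells against 8.03, 7.74, 8.30 and 8.48 in primary hepatocytes, a difference of −1.94 ± 0.20 (SE; limma adjusted p = 1.34e-06).

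Primary hepatocytes also carried more transcript of most markers of leukocytes, endothelial cells and red blood cells. Hepatocyte-differentiated cells were lower than they for 6 of 7 leukocyte, 6 of 6 endothelial and 2 of 2 red blood cell markers. Of all genes tested, 33.7% were lower. The leukocyte gene Ptprc was higher, at −4.02 to −2.99 against −5.59 to −4.04 in primary hepatocytes. Leukocyte markers summed to 0.56 to 1.86 in hepatocyte-differentiated cells against 3.07 to 3.65 in primary hepatocytes, endothelial markers to 0.51 to 1.53 against 3.44 to 3.79, and red blood cell markers to −6.44 to −4.85 against 3.84 to 4.34. Such sums follow the brightest genes, for red blood cells Alas2, at 3.82 to 4.31 in primary hepatocytes. Cholangiocyte markers summed higher in hepatocyte-differentiated cells, at 6.37 to 6.82 against 3.5 to 3.92. The sums of stellate and mesenchymal markers overlapped, at −3.44 to 0.35 against −2.57 to −1.88. The part of these cells in the P450 differences was not tested.

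Cholangiocyte-differentiated cells were then set against primary cholangiocytes. Of 76 genes, 2 were higher and 6 lower in cholangiocyte-differentiated cells, where 11.9% of all genes were higher and 7.62% lower, so the share of lower P450 genes (7.89%) was near that of all genes, and the medians were 0.20 over the P450 genes and 0.17 over all genes. With normexp background correction 4 were higher and 6 lower, and with slide as a block 2 and 6. Cyp1a1 was at least 2031-fold higher (limma adjusted p = 0.000801), with both primary cholangiocyte arrays below background. Cyp1b1 was higher by 8.34 ± 1.15, with −2.51 and −7.38 in primary cholangiocytes (SE; limma adjusted p = 0.00021). The 6 lower genes were Cyp2a4, Cyp2a21-ps, Cyp2f2, Cyp2j6, Cyp2j13 and Cyp2j8-ps, of which Cyp2f2 was at −7.04, −9.51 and −9.65 in cholangiocyte-differentiated cells against 1.45 and −0.45 in primary cholangiocytes, a fitted difference of −9.23 ± 2.34 (SE; limma adjusted p = 0.0134), with cholangiocyte-differentiated arrays 2 and 3 not above background. Without primary cholangiocyte replicate 3 all 6 of these calls were lost, while Cyp1a1 and Cyp1b1 passed with each array left out. The second probes of Cyp2a4 and Cyp2j13 did not pass, at −3.55 and 0.12 (limma adjusted p = 0.0512 and 0.911), whereas second probes of Cyp2c67 (7.28) and Cyp2r1 (−4.63) did. The single slide that carried both groups held the direction of all 8. Hepatocyte markers summed to −0.62 to 3.61 in primary cholangiocytes and to 1.32 to 3.71 in cholangiocyte-differentiated cells. Ttr and Apoa1 were at 3.42 and −0.92 on primary cholangiocyte replicate 3 and at −1.12 and −8.00 on replicate 4. Tat was at −4.04 and −3.49 on these replicates. The part of hepatocyte transcripts in these calls was not tested.

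Genes that serve P450 proteins in general were set beside the family. The list of electron donors and partners is not specific to families 1 to 4. Cytochrome P450 oxidoreductase (Por), the electron donor of all members, was at 4.83, 3.46, 5.17 and 3.45 in hepatocyte-differentiated cells against 4.63, 4.82, 4.97 and 4.07 in undifferentiated cells, and the groups overlapped (difference −0.40, limma adjusted p = 0.575). Of 7 electron donors and partners tested, Pgrmc2 (0.75) and Fdx1 (0.74) rose and Cyb5b (−0.76) fell in this comparison, where 7.61% of all genes rose and 7.7% fell. Against primary hepatocytes all 7 were lower, where 33.7% of all genes tested were lower and 25.9% higher. Of 12 genes of haem synthesis and breakdown, 0 rose and 1 fell relative to undifferentiated cells. Relative to primary hepatocytes 11 were lower, among them Alas1, the rate-limiting enzyme of haem synthesis (−3.72), and Hmox1, which breaks haem down, was higher by 2.34.

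Among 19 receptors and transcription factors that regulate P450 genes, 3 rose and 0 fell in hepatocyte-differentiated relative to undifferentiated cells. Of all genes tested, 7.61% rose and 7.7% fell in this comparison, and relative to primary hepatocytes 33.7% were lower and 25.9% higher. Ppara, which encodes PPAR alpha, was at 1.17, −0.42, 1.06 and −0.36 in hepatocyte-differentiated cells against −2.41, −0.45, −3.28 and −2.22 in undifferentiated cells and rose by 2.45 (limma adjusted p = 0.0088). Rxra, the partner of several of these receptors, rose by 1.22 and the glucocorticoid receptor gene Nr3c1 by 0.87. Against primary hepatocytes 13 of the 19 were lower and 2 higher, with Cebpa at −5.45, the PXR gene Nr1i2 at −5.20, Ppara at −4.95 and the CAR gene Nr1i3 at −4.72. Of 16 tested P450 genes of other families, 2 rose relative to undifferentiated cells: Cyp26b1, which breaks down retinoic acid, by 2.65 and Cyp39a1, an oxysterol hydroxylase, by 1.30. The bile acid enzymes Cyp7a1 and Cyp8b1 were lower than in primary hepatocytes, with differences of −10.97 and −11.56.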

How the data were processed

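Each sample was 1 single-colour Agilent array. Per the file headers, Agilent Feature Extraction 10.5.1.1 made the deposited intensity values (version 9.53 in the submitters' processing notes): the processed Cy3 signal, and the raw mean and local background signals. Per the labels, RNA was extracted with Trizol and RNeasy, amplified with WT-Ovation Pico and labelled with Cy3. The authors also deposited a table of fold change scores and of false discovery rates in percent, used here as an alternative; how the authors made it is not given in the sources used here.

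Control spots and outlier spots were left out, spots of a probe were averaged, and log2 of the processed signal minus log2 of the array's 75th percentile was taken. Probes well above background on at least 2 of 17 arrays were kept, with 1 probe per gene name (the highest mean), leaving 26039 genes. All 17 arrays entered 1 fit (limma 3.58.1, R 4.3.3, lmFit and eBayes) with Benjamini-Hochberg adjustment over all genes at 0.05. The fit was tested on simulated data. Alternatives were other scalings, normexp with an offset of 50, no filter, the 2 groups alone, slide and replicate number as blocks, the authors' table, and leaving out each array. The 5 slides carried the arrays, each slide with its own scan time. Same-numbered arrays did not deviate together as a set (28 pairs, r from −0.23 to 0.52, median −0.07), so numbers were not taken as pairs. Arrays of different groups on the same slide had a median r of 0.09 (22 pairs, r from −0.18 to 0.33). Arrays with different numbers had a median of −0.01 (86 pairs). The main fit holds no term for slide.

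The members and the gene lists were chosen with earlier results of these data known. Named with values were the 4 marker genes Cyp1a2, Cyp2e1, Cyp3a11 and Cyp4f14, in each subfamily the genes with the highest mean and the widest spread between groups, up to 6 members per comparison and direction by size among those that passed, members above background nowhere, and a few genes per list. Cyp2a22, Cyp2c67, Cyp2d12, Cyp2d13, Cyp2d22, Cyp2d26, Cyp2d37-ps and Cyp2d40 were named after their values were seen. Some genes have other names in RefSeq now, Cyp2c44 and Cyp2j8-ps among them. The files name no genome build for the probes, so probe coordinates are not used here. No per-array values of the authors' own normalization were used.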

Additional observations from a re-analysis of the deposited data

Results flagged for a closer look

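Of 162 groups tested over 54 named genes, 9 held 1 array set apart from the rest by a gap that chance gives in about 1 group of 20. The share is near that of chance, so the arrays below are listed as a description only. In hepatocyte-differentiated cells, Cyp2j8-ps was −2.0 on array 1 against −3.02 to −2.94 on the others, and Cyp2u1 was 5.97 on array 2 against 6.26 to 6.28. In undifferentiated cells array 4 was lowest for Cyp2d9 (−7.66, others −5.36 to −5.19), Cyp2e1 (−6.41, others −5.08 to −4.87) and Cyp4b1 (−6.21, others −2.75 to −2.18), and array 1 was highest for Cyp2f2 (−7.46, others −9.43 to −9.23), a probe not above background there. In primary hepatocytes Cyp4a31 was 4.57 on array 1 against 6.24 to 6.57, Cyp4f15 was 5.02 on array 2 against 4.54 to 4.61, and Cyp2d34 was 6.48 on array 4 against 6.23 to 6.26.

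The comparison of hepatocyte-differentiated with cholangiocyte-differentiated cells, given in the report, is also the difference of both conditions' effects, since the undifferentiated cells cancel. The effect of the hepatocyte condition and that of the cholangiocyte condition, both relative to undifferentiated cells, differed for 16 genes by the test of the difference itself. The fitted difference of the effects was above 0 for Cyp2d10 (9.32), Cyp2d34 (9.31), Cyp4b1 (5.72), Cyp4a12a (5.62), Cyp4a12b (5.54), Cyp4a32 (4.46), Cyp2d12 (4.29), Cyp2d22 (4.29), Cyp4f14 (4.26), Cyp2c44 (3.93), Cyp2d9 (3.55), Cyp2d11 (3.37), Cyp2d13 (2.69), Cyp3a13 (2.45) and Cyp4v3 (2.03). Cyp2d34 and Cyp4a32 were not above background on any cholangiocyte-differentiated array, so only their bounds of at least 206-fold and 7.20-fold are measured. The difference was below 0 for Cyp1a1 (−7.86).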

How the results depend on the processing

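Of the log2 differences of P450 genes that passed the test and of the 4 marker genes, recomputed under each alternative, 3185 kept their direction and side of the threshold, 106 lost the call, 11 gained it and 14 changed sign. The number of P450 genes that rose in hepatocyte-differentiated relative to undifferentiated cells was 14, but 6 with only these groups fitted, 9 with slide as a block and 10 to 25 with an array left out; 1 fell, but 0 with only these groups or with slide as a block, 2 with median scaling, quantile normalization or the authors' deposited table, and 0 to 3 with an array left out. The Cyp1a1 call in cholangiocyte-differentiated relative to undifferentiated cells became 0 genes with only these groups, without the filter, with slide or replicate block and in the authors' deposited table, and 0 to 1 with an array left out. Between hepatocyte-differentiated and cholangiocyte-differentiated cells, 2 genes instead of 1 fell in the authors' deposited table, and 12 to 20 rose with an array left out. Relative to primary hepatocytes, 7 genes instead of 4 were higher in the authors' deposited table. In cholangiocyte-differentiated cells relative to primary cholangiocytes, 6 genes fell, but 3 in the authors' deposited table, 2 with only these groups and 0 to 7 with an array left out; 2 rose, but 4 with normexp or in the authors' deposited table and 2 to 4 with an array left out. In primary hepatocytes relative to primary cholangiocytes 38 genes instead of 62 were higher in the authors' deposited table, which gave a fold for 51 of the genes, and 2 instead of 4 were lower with normexp, with only these groups and with the replicate block, and 2 to 4 with an array left out. The replicate block moved no other count by over 1.5 times. The cause of these changes was not tested.

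The sign changes were as follows. With normexp, Cyp1a2 differed by 0.020 between hepatocyte-differentiated and undifferentiated cells, −0.12 between hepatocyte-differentiated and cholangiocyte-differentiated cells, 0.14 between cholangiocyte-differentiated and undifferentiated cells and 0.63 between cholangiocyte-differentiated cells and primary cholangiocytes; with an array left out the first ranged from −1.34 to 0.095 and the last from −2.49 to 0.83. Also with normexp, Cyp3a11 differed by 0.084 between cholangiocyte-differentiated and undifferentiated cells, and Cyp1b1 and Cyp4a29 by 0.035 and 0.13 between primary hepatocytes and primary cholangiocytes. Cyp2e1 turned to −0.060 with the replicate block, −0.13 with slide as a block and a range of −0.0031 to 0.69 with an array left out in cholangiocyte-differentiated relative to undifferentiated cells, and to −0.22 and −0.37 with these blocks relative to primary cholangiocytes.

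Median scaling moved the median of all genes from 0.07 to −0.18 between hepatocyte-differentiated and undifferentiated cells, and the calls over all genes from 1981 higher and 2005 lower to 1118 and 2776. Probes below background give only a bound, and primary cholangiocytes have 2 arrays.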

Other observations

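Other enzymes of drug oxidation were measured on the same arrays. Of 14 flavin monooxygenases, aldehyde and xanthine oxidases, epoxide hydrolases and alcohol and aldehyde dehydrogenases tested, 2 rose and 2 fell in hepatocyte-differentiated relative to undifferentiated cells. Of all genes tested, 7.61% rose and 7.7% fell. Xanthine dehydrogenase (Xdh), an enzyme of purine breakdown, rose by 4.43 on the log2 scale (limma adjusted p = 0.00206) and the flavin monooxygenase Fmo5 by 2.66 (limma adjusted p = 0.0369). The retinaldehyde dehydrogenase Aldh1a1 and the mitochondrial Aldh2 fell by 1.16 and 0.65. Relative to primary hepatocytes 12 of the 14 were lower and 0 higher, where 33.7% of all genes were lower and 25.9% higher. Xdh averaged 1.97 in hepatocyte-differentiated cells against 2.44 in primary hepatocytes, a difference of −0.48 that did not pass the test (limma adjusted p = 0.62). The alcohol dehydrogenase Adh1 was at 2.25, −2.40, 2.80 and −4.19 in hepatocyte-differentiated cells against −0.96, −6.73, −9.62 and −9.21 in undifferentiated cells and did not pass (limma adjusted p = 0.0675).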
